A study of Mus musculus with 70 samples.

Results

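The comparison described here set the histotripsy-treated tumor against the histotripsy-abscopal tumor in CD45- cells 3 days after ablation. Libraries were chosen by their labels (CD45-, day 3, treated or abscopal), which gave 14 of the 70 libraries of the series, 7 of each group, and all named genes of their table were analysed. Histotripsy uses pulses of focused ultrasound to fragment tissue mechanically, without heating. B16F10 melanoma, a transplantable line of C57BL/6 origin, was grown under the skin of both flanks of young adult C57BL/6 mice of both sexes, and most but not all of the tumor on 1 flank was then ablated, so that a histotripsy-treated tumor kept some intact tissue. The histotripsy-abscopal tumor is the tumor on the other flank, which was left untouched. The 4 control libraries of the same day came from tumors of mice that had a sham procedure, and entered only the estimate of the spread and the levels given for reference. All 3 groups carry the same tumor line and mouse strain and the same sort for cells without CD45. The labels do not name the mouse or the sex behind a library, do not say whether a treated and an abscopal library of the same number came from 1 mouse, and do not say whether replicates are separate animals, so p-values measure the spread between these samples only. The study's legend for this RNASeq gives fewer mice per group than there are libraries, so some libraries may share a mouse, and n counts libraries throughout.

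CD45 is the surface marker of blood-derived cells, and the CD45- fraction therefore holds melanoma cells together with fibroblasts, vessel cells and other supporting cells. Injured tissue is known to switch on immediate early transcription factors, chaperones, chemokines and factors of the TGF-β and BMP pathways, whose SMAD proteins drive the Id genes. Id proteins (inhibitors of DNA binding) have a helix-loop-helix domain but no DNA-binding region, and hold partner transcription factors away from DNA. They are known for keeping cells proliferating and undifferentiated.

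Depth ranged from 1854131 to 3495650 counts per library in histotripsy-treated tumors and from 1080212 to 3820705 in histotripsy-abscopal tumors. Levels are given as CPM, the counts of a gene per 1000000 counts of its library. The test was the quasi-likelihood test of edgeR, with p-values adjusted after Benjamini-Hochberg over the 10921 genes that passed its filter on low counts, and the log2 difference of a gene is the log2 fold change fitted by it, treated minus abscopal. A gene with an adjusted p under 0.05 is said to be called. Melanoma markers were abundant in each library, with a sum over 9 genes of 23839 to 34261 CPM in treated and 28793 to 37320 CPM in abscopal tumors. Ptprc, the gene of CD45, had at most 3 counts in a treated library and at most 1 in an abscopal library. The summed markers of neutrophils reached at most 2.80 CPM in any of the 14 libraries, those of NK cells 2.11 CPM, B cells 1.06 CPM, T cells 5.55 CPM, and monocytes and macrophages 11.5 CPM. In bulk samples, fewer cells of a type and less RNA per cell cannot be told apart.

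Fibroblast markers differed widely among the treated libraries. The sum of 12 markers was 6149, 2202, 14182, 60.7, 267, 2763 and 1129 CPM in histotripsy-treated replicates 1 to 7, between 164 and 880 CPM (median 581) in abscopal libraries, and between 20.8 and 1144 CPM in control libraries. Treated replicates 1, 2, 3, 6 and 7 lay above each abscopal library, replicate 4 lay below each of them, and replicate 5 lay within their range. Hemoglobin and other erythroid markers were highest in treated replicates 4 (387 CPM) and 5 (159 CPM), against at most 60.7 CPM in the abscopal libraries.

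Of the 10921 genes, 16 were called (0.147%), 10 higher (0.0916%) and 6 lower (0.0549%) in histotripsy-treated than in histotripsy-abscopal tumors. Higher were Id1, Id2 and Id3, the imprinted long noncoding RNA H19, the surface protein gene Steap1, the junction protein gene Amotl2 and 4 small RNA genes. Lower were the nuclear receptor gene Rora, the homeobox gene Irx3, the myosin light chain kinase gene Mylk, the dystrophin-complex gene Dtna, the scaffold gene Ahnak2 and the RING finger gene Rnf141. At an unadjusted p under 0.05 there were 814 genes higher (7.45%) and 660 lower (6.04%). The median log2 difference over all genes tested was 0.01 and 52% of them were higher in treated tumors. The CPM values of both groups did not overlap at all in 57 genes (0.522%), 45 of them higher and 12 lower in treated tumors. The number of called genes depended on single libraries: leaving out each of the 18 libraries in turn (leave-one-out fits) gave between 0 and 99 called genes, with 0 without abscopal replicate 1 and 99 without treated replicate 5.

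**Figure D1:**
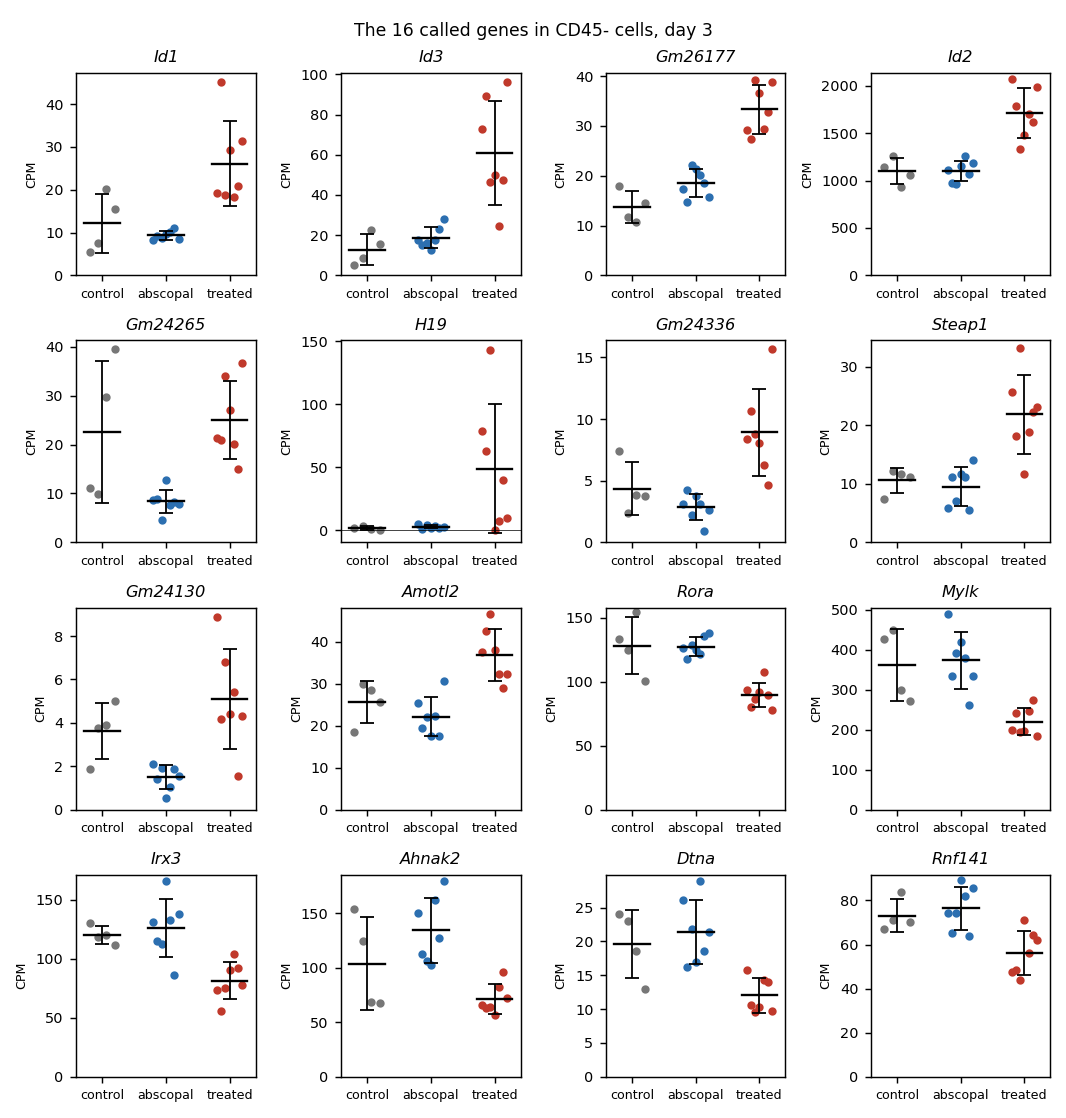
CPM of the 16 called genes in each control (gray, n = 4), histotripsy-abscopal (blue, n = 7) and histotripsy-treated (red, n = 7) library; points are libraries, the long bar is the mean and the whiskers are the SD, on linear axes that differ between panels. The first 10 panels hold the genes that were higher in treated tumors and the last 6 those that were lower; in H19 the treated libraries spread from 0.366 to 143 CPM, and in Gm24265 and Gm24130 the abscopal mean lies below the control mean, with overlapping libraries.

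The Id genes were the only members of the 20 pathway lists that were called. Id1 (chromosome 2, 152736251 to 152737410 of GRCm38, plus strand) had 18.3, 20.8 and 45.2 CPM as lowest, median and highest value in treated tumors and 8.36, 9.15 and 11.1 CPM in abscopal tumors. The groups did not overlap. Treated tumors averaged 26.1 ± 9.93 CPM (SD, n = 7) and abscopal tumors 9.34 ± 1.01 CPM (SD, n = 7). This was 2.79-fold, a log2 difference of 1.48 (SE 0.238, edgeR adjusted p = 0.0138). Control libraries lay between 5.55 and 20.3 CPM, so the highest control exceeded the lowest treated library.

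Id3 (chromosome 4, 136143497 to 136145755, plus strand) had 24.3, 49.7 and 96.0 CPM in treated tumors and 12.8, 17.4 and 28.3 CPM in abscopal tumors. Of the 7 treated libraries, 6 lay above each abscopal library, and replicate 5 fell within their range. It differed by 1.68 on the log2 scale (SE 0.276, edgeR adjusted p = 0.0138), or 3.20-fold, and controls spread from 4.94 to 22.4 CPM. Id2 (chromosome 12, 25093799 to 25097140, minus strand) was the most abundant of the family, with 1329, 1701 and 2075 CPM in treated tumors and 961, 1108 and 1259 CPM in abscopal tumors. Its groups did not overlap, and the log2 difference was 0.62 (SE 0.107, edgeR adjusted p = 0.0215), or 1.53-fold. Control libraries of Id2, at 931 to 1258 CPM, overlapped the abscopal range.

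The Id levels were also read in the treated libraries at both ends of the fibroblast marker range. Replicate 3, the library with the most fibroblast marker RNA, had the lowest Id2 value of its group and 18.8 CPM of Id1, and replicate 4, with the least, had 29.3 CPM of Id1 and 49.7 CPM of Id3. With the fibroblast marker level as a covariate, an alternative chosen after seeing the data, the log2 differences were 1.58 for Id1, 1.599 for Id3 and 0.56 for Id2 (adjusted p = 0.00249, 0.00619 and 0.0138, edgeR). Id3 was lowest in replicate 5, whose fibroblast marker sum was above only that of replicate 4 among treated libraries. The part of fibroblast content in the Id differences was not tested. Id1, Id2 and Id3 each stayed called in 16 of the 18 leave-one-out fits.

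The wider list of Id genes and TGF-β/BMP signaling had 30 tested members of 45. Of these, 23 were higher in treated tumors, 3 were called (Id1, Id2 and Id3), and 10 had an unadjusted p under 0.05, each higher. Over all genes tested the shares were 0.147% called and 7.45% higher at an unadjusted p under 0.05. The median log2 difference was 0.10, against 0.01 over all genes tested. This median was 0.04 with the fibroblast covariate and 0.06 without treated replicates 1 and 3. The list was drawn up with earlier results of these data known, so its counts are a description only. Smad7, an inhibitory SMAD that the pathway itself induces, had 18.3, 31.7 and 43.5 CPM in treated and 13.2, 21.2 and 25.9 CPM in abscopal tumors, with 6 treated libraries above each abscopal library. Its log2 difference of 0.69 (SE 0.186) was not called (edgeR adjusted p = 0.106). Smad6, the other inhibitory SMAD, had at most 6 counts in a library and was not tested. No other member of the list passed the test.

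H19 (chromosome 7, 142575529 to 142578143, minus strand), an imprinted long noncoding RNA known from fetal tissues, had the largest fold change of the called genes. Treated replicates 1 to 7 had 79.1, 62.7, 143, 0.366, 7.15, 40.0 and 9.71 CPM, and abscopal libraries had 1.06, 2.88 and 4.88 CPM as lowest, median and highest value. Of the treated libraries, 6 lay above each abscopal library and replicate 4 lay below all of them. It differed by 3.99 on the log2 scale (SE 0.752, edgeR adjusted p = 0.0332). Its order among treated libraries was that of the fibroblast markers at both ends: replicates 3 and 1 were highest and replicate 4 lowest in each. With the fibroblast covariate the log2 difference was 1.87 (adjusted p = 0.00940), and it was 2.91 (adjusted p = 0.111) without treated replicates 1 and 3. H19 was called in 7 of the 18 leave-one-out fits, and in limma-voom its adjusted p was 0.507.

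Steap1 (chromosome 5, 5736317 to 5749326, minus strand), which belongs to a family of membrane metalloreductases, had 11.7, 22.3 and 33.2 CPM in treated and 5.55, 11.1 and 14.1 CPM in abscopal tumors. Amotl2, an angiomotin family member of cell junctions (chromosome 9, 102716672 to 102733418, plus strand), had 29.1, 37.6 and 46.7 CPM against 17.6, 22.2 and 30.6 CPM. In both genes 6 of the 7 treated libraries lay above each abscopal library. Steap1 differed by 1.14 on the log2 scale (SE 0.226, edgeR adjusted p = 0.0400). Amotl2 differed by 0.70 (SE 0.141, edgeR adjusted p = 0.0435). They passed in 5 and 6 of the 18 leave-one-out fits.

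Among the called genes that were lower, Rora had the smallest p. Rora, the gene of a nuclear receptor of the circadian clock (chromosome 9, 68653786 to 69388246, plus strand), had 78.2, 89.8 and 107 CPM in treated tumors and 118, 126 and 138 CPM in abscopal tumors. The groups did not overlap. It differed by -0.53 on the log2 scale (SE 0.0839, edgeR adjusted p = 0.0138), which is 0.694 times the abscopal level, and Rora passed in 17 of the 18 leave-one-out fits. Controls, at 101 to 154 CPM, were close to the abscopal libraries, with a log2 difference of abscopal against control of 0.02.

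Mylk (chromosome 16, 34745210 to 35002420, plus strand), whose kinase drives contraction of smooth muscle and of other cells, had 186, 199.7 and 275 CPM in treated and 263, 379 and 491 CPM in abscopal tumors. Only 1 treated library reached the abscopal range. It differed by -0.79 on the log2 scale (SE 0.141, edgeR adjusted p = 0.0245). Irx3, an Iroquois homeobox factor (chromosome 8, 91798525 to 91802067, minus strand), had 55.5, 77.7 and 104 CPM against 86.1, 131 and 166 CPM, and its groups overlapped. The log2 difference of Irx3 was -0.66 (SE 0.122, edgeR adjusted p = 0.0282). Mylk and Irx3 passed in 15 and 11 of the 18 leave-one-out fits. Irx3, Mylk, Rora, Dtna and Rnf141 each overlap genes annotated on the other strand, and the strand setting of the counting is not given in the sources used here, so part of their counts could come from those genes.

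Ahnak2 and Dtna separated the groups without overlap. Ahnak2, a very large scaffold protein (chromosome 12, 112772194 to 112802657, minus strand), had 56.3, 66.2 and 96.1 CPM in treated and 102, 128 and 179 CPM in abscopal tumors, a log2 difference of -0.94 (SE 0.179, edgeR adjusted p = 0.0332). Dtna, which encodes α-dystrobrevin, had 9.59, 10.6 and 15.8 CPM against 16.2, 21.5 and 28.9 CPM, a log2 difference of -0.87 (SE 0.172, edgeR adjusted p = 0.0400). Rnf141 (chromosome 7, 110800432 to 110844457, minus strand) had 44.0, 56.1 and 71.0 CPM against 63.9, 74.5 and 89.4 CPM, with overlap, and a log2 difference of -0.48 (SE 0.0949, edgeR adjusted p = 0.0400). Ahnak2, Dtna and Rnf141 passed in 10, 9 and 6 of the 18 leave-one-out fits. All 6 lower genes were also lower in treated than in control tumors by the log2 difference, between -0.73 for Mylk and -0.39 for Rnf141, while abscopal against control ranged from 0.02 for Rora to 0.39 for Ahnak2. The contrasts with control share libraries with the main comparison and are given as values only.

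The 4 small RNA genes among the 10 that were higher are shown as sequences because the letters bear on how far their counts can be assigned to 1 place in the genome. Gm26177 (chromosome 10, 54311225 to 54311331, minus strand) is annotated as a small nuclear RNA gene, and its sequence is U6-like. Gm24265 (chromosome 5, 115489459 to 115489599, plus strand) has the same annotation and a U4-like sequence. U6 and U4 small nuclear RNAs are parts of the spliceosome. Whether Gm26177 or Gm24265 gives a functional RNA was not tested. Gm24336 (chromosome 19, 44113979 to 44114124, minus strand) and Gm24130 (chromosome 13, 65158258 to 65158408, plus strand) are annotated as small nucleolar RNA genes, a class that guides modification of other RNAs. The sequences below are the GENCODE M21 transcripts on GRCm38, 5′ to 3′, with capitals at the bases that differ from the closest other annotated transcript.
Gm26177: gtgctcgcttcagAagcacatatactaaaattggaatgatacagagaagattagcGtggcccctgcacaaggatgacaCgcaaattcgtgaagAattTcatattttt
Gm24265: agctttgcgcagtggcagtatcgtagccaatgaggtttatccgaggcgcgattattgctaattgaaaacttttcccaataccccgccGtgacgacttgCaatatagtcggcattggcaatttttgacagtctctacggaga
Gm24336: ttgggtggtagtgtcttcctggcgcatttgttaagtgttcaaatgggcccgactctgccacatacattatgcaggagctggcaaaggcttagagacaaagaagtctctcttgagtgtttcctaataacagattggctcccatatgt
Gm24130: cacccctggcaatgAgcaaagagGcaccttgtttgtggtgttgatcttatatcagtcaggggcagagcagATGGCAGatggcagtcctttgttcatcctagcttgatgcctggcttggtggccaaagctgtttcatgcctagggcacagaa

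The U6-like Gm26177 has 187 other annotated genes whose transcripts match at least 90% of its bases over nearly its whole length, the closest of them, Gm23648, at 95.3%. Gm24265 has 2 such matches, and differs from Gm24407 by 2 of its 141 bases. Gm24130 has 3, the closest, Gm25291, at 93.9% over 148 aligned bases, and Gm24336 has 0. Gm24336 instead lies inside Cwf19l1 on the same strand. The counts of these genes are therefore uncertain between copies or between host gene and small RNA.

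Gm26177 had 27.4, 32.7 and 39.2 CPM as lowest, median and highest value in treated tumors and 14.8, 18.5 and 22.2 CPM in abscopal tumors, without overlap. Its log2 difference was 0.82 (SE 0.136, edgeR adjusted p = 0.0138), and it passed in 17 of the 18 leave-one-out fits. Gm24265 had 15.1, 21.3 and 36.7 CPM against 4.51, 8.33 and 12.8 CPM, also without overlap, and a log2 difference of 1.58 (SE 0.287, edgeR adjusted p = 0.0275). Control libraries lay between 9.86 and 39.5 CPM, so the treated range overlapped them more than the abscopal range did. The log2 difference of treated against control was 0.13 and that of abscopal against control -1.45. Its near-copy Gm24407 had 5.71, 16.4 and 20.1 CPM in treated and 3.83, 6.12 and 8.45 CPM in abscopal tumors, a log2 difference of 1.33 that was not called (edgeR adjusted p = 0.0768).

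Gm24336 had 4.67, 8.40 and 15.6 CPM in treated and 0.926, 3.13 and 4.22 CPM in abscopal tumors, and its groups did not overlap. It differed by 1.55 on the log2 scale (SE 0.296, edgeR adjusted p = 0.0332). Gm24130 had 1.56, 4.39 and 8.90 CPM against 0.532, 1.57 and 2.09 CPM, with a log2 difference of 1.72 (SE 0.342, edgeR adjusted p = 0.0400). In Gm24130, as in Gm24265, abscopal tumors had a lower fitted level than controls (log2 difference -1.25, with overlapping libraries), and treated against control was 0.47. These low counts rest on at most 29 counts per library in Gm24336 and 19 in Gm24130. Gm24265, Gm24336 and Gm24130 passed in 13, 8 and 5 of the 18 leave-one-out fits.

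Beyond the 4 called genes, the class as a whole was looked at after these values were seen. Of 33 tested genes annotated as small nuclear RNA, 31 were higher in treated tumors, 2 were called, 18 had an unadjusted p under 0.05 in the higher direction and 0 in the lower, and the median log2 difference was 0.59. Of 29 small nucleolar RNA genes, 25 were higher, 2 were called and 6 had an unadjusted p under 0.05, each higher, with a median of 0.48. Over all genes tested 0.147% were called and 7.45% were higher at an unadjusted p under 0.05, and of the 9817 protein-coding genes 5105 were higher, with a median of 0.01. The summed level of all small nuclear RNA genes was 618, 858 and 1237 CPM as lowest, median and highest value in treated tumors and 485, 557 and 669 CPM in abscopal tumors, and only treated replicate 6 fell within the abscopal range. The sum over small nucleolar RNA genes, 428 to 623 CPM against 352 to 598 CPM, overlapped. Many of these genes are near-identical, so they are not independent of each other. Log2 differences from control, given as values only, varied between members. Gm26127 was at 0.76 in treated and 0.22 in abscopal tumors, and Gm24407 at 0.10 and -1.23. Of the small nucleolar RNA genes, Snord118 was at 1.11 and -0.28, and Scarna9 at -0.29 and -1.04. A level above that of abscopal tumors was thus not always a level above control.

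**Figure D2:**
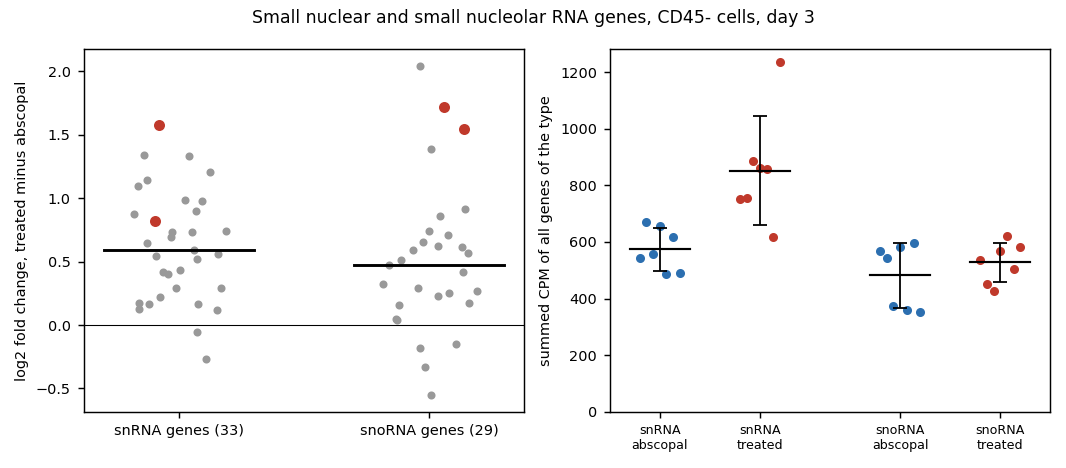
Left, log2 fold change (histotripsy-treated minus histotripsy-abscopal) of each tested small nuclear RNA gene (33) and small nucleolar RNA gene (29), with called genes in red and the median as a bar; right, summed CPM of all genes of each type in each library (blue abscopal, red treated, n = 7 each), with mean and SD. Of the small nuclear RNA genes 31 lie above 0, and their summed CPM in treated libraries runs from 618 to 1237.

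Fibroblast markers had a median log2 difference of 2.44, without any called member. All 11 tested fibroblast markers of 12 were higher in treated tumors at an unadjusted p under 0.05, and none was called by edgeR. Col1a1, the main chain of type I collagen (chromosome 11, 94936224 to 94953042, plus strand), had 2306, 905, 5019, 17.9, 105, 1008 and 455 CPM in treated replicates 1 to 7 and 49.1 to 312 CPM in abscopal libraries. Of the 7 treated libraries, 5 lay above each abscopal library and replicate 4 below all of them. The log2 difference was 3.04 with a SE of 0.851, and the adjusted p was 0.117 (edgeR). It was 0.0438 in DESeq2 and 0.474 in limma-voom. Col1a1 is the most abundant of the fibroblast markers.

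Extracellular matrix and matricellular genes had 50 tested members, of which 48 were higher in treated tumors. There were 38 with an unadjusted p under 0.05 in that direction, 0 in the other, and 0 were called by edgeR. The median log2 difference was 1.59. Matrix proteases and their inhibitors had 25 tested members, 20 of them higher, 14 at an unadjusted p under 0.05, and a median of 1.28. Of the named members, Thbs2, a matricellular thrombospondin, differed by 2.94 (edgeR adjusted p = 0.0768) and Col4a1, a basement membrane collagen, by 1.07 (edgeR adjusted p = 0.0869). Adam19, a membrane metalloprotease, differed by 1.92 (edgeR adjusted p = 0.0518). For Thbs2, Col4a1 and Adam19 the adjusted p was 0.0298, 0.0109 and 0.00455 in DESeq2, and 0.509, 0.165 and 0.228 in limma-voom. Averaged over the matrix list, log2 CPM was highest in treated replicates 3 (7.07) and 1 (6.16) and lowest in treated replicate 4 (3.04), against 3.47 to 4.65 in abscopal libraries. With the fibroblast covariate, whose markers include members of the matrix list, the median of that list was 0.12 and that of the protease list 0.08. Without treated replicates 1 and 3 they were 0.48 and 0.20.

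Chemokines, the attractants of blood-derived cells, had 13 tested members of 33. There were 11 higher in treated tumors, 9 at an unadjusted p under 0.05, 0 called by edgeR, and the median log2 difference was 2.04. Cxcl1, which attracts neutrophils, had 111, 30.8, 238, 1.46, 2.86, 72.2 and 18.3 CPM in treated replicates 1 to 7 and 0.926, 7.39 and 13.9 CPM as lowest, median and highest abscopal value. The log2 difference of Cxcl1 was 2.98 (SE 0.773, edgeR adjusted p = 0.0995). Its adjusted p was 0.0420 in DESeq2 and 0.670 in limma-voom. Cxcl2, a close relative, had 1.46, 4.31 and 39.6 CPM against 0, 1.31 and 2.11 CPM, with 6 treated libraries above each abscopal library. It was not called (log2 difference 3.32, SE 0.714, edgeR adjusted p = 0.0518). Its adjusted p was 0.00772 in DESeq2 and 0.339 in limma-voom. With the fibroblast covariate it differed by 1.55 (edgeR adjusted p = 0.129). Cxcl2 passed in 2 of the 14 leave-one-out fits that tested it. Ccl2, which attracts monocytes, had a log2 difference of 2.65 (adjusted p = 0.145), which was -0.33 with the fibroblast covariate. The treated libraries with the most Cxcl1 were replicates 3, 1, 6 and 2, the same 4 libraries that had the most fibroblast RNA, and the median of the chemokine list was -0.43 with the fibroblast covariate and 0.10 without treated replicates 1 and 3.

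Interleukins and the IL-6 family had 12 tested members, 9 higher and 6 at an unadjusted p under 0.05, with a median log2 difference of 0.52. This median was 0.05 with the fibroblast covariate and -0.10 without treated replicates 1 and 3. Il6 itself had at most 19.2 CPM in a treated library and 1.57 CPM in an abscopal library, and 1 or more libraries of each group had none. In the NF-κB and TNF list 14 of 24 tested members were higher, 5 at an unadjusted p under 0.05, and 2 were lower at that level, with a median of 0.02. Nfkbia, the inhibitor that NF-κB induces, had 158, 306 and 1119 CPM in treated and 150.0, 217 and 259.6 CPM in abscopal tumors, a log2 difference of 1.10 (edgeR adjusted p = 0.151), which was 0.24 with the fibroblast covariate and 0.33 without treated replicates 1 and 3. No gene of either list was called.

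**Figure D3:**
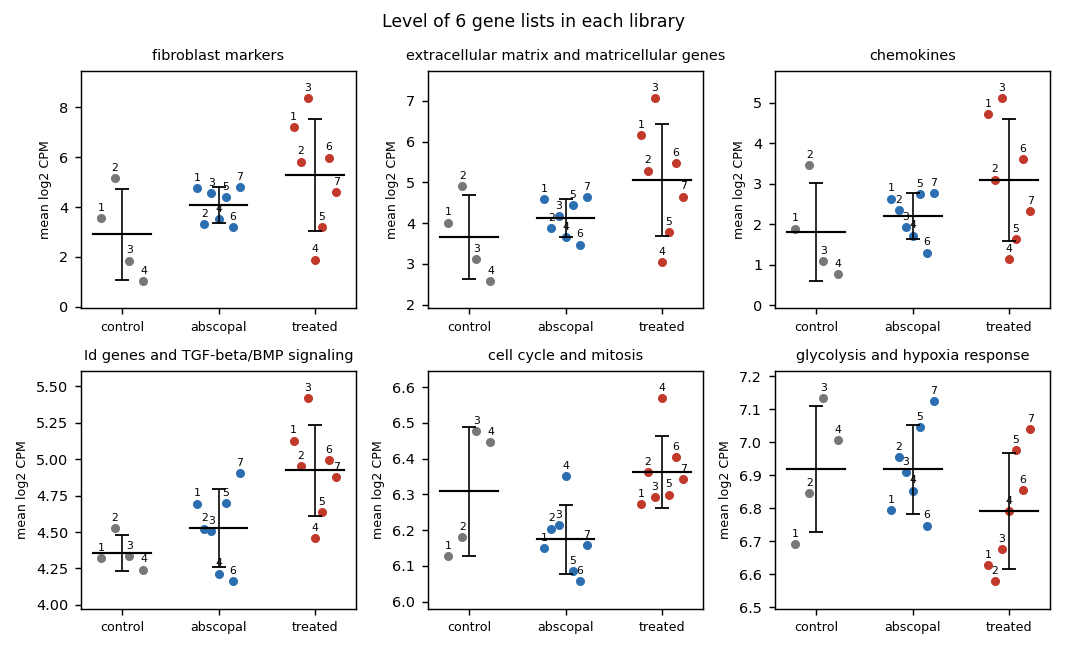
Mean log2 CPM over the tested members of 6 gene lists in each library (numbers are replicate numbers; gray control, n = 4; blue histotripsy-abscopal, n = 7; red histotripsy-treated, n = 7), with the group mean and SD; vertical axes differ between panels and do not start at 0. Treated replicates 3 and 1 are highest and treated replicate 4 lowest of its group in the fibroblast, matrix and chemokine panels, and the matrix panel runs from 3.04 to 7.07 in treated libraries.

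Immediate early genes, which respond within minutes to growth factors and stress, had 36 tested members. There were 27 higher in treated tumors, 13 of them at an unadjusted p under 0.05, 2 lower at that level, 0 called, and a median log2 difference of 0.20. Ier2 had 23.7, 34.6 and 45.2 CPM in treated and 18.0, 21.3 and 24.995 CPM in abscopal tumors, with 6 treated libraries above each abscopal library (log2 difference 0.64, SE 0.138, edgeR adjusted p = 0.0518). Egr1, a zinc finger factor, had 68.9, 126 and 339.6 CPM against 46.3, 63.4 and 114 CPM, and a log2 difference of 1.24 (adjusted p = 0.111). Fos and Jun, the partners of the AP-1 factor, had log2 differences of 0.52 and 0.44 (adjusted p = 0.235 and 0.300). Atf3, a stress-induced factor, and Klf4 differed little between treated and abscopal tumors (log2 differences of 0.21 and -0.20, edgeR adjusted p = 0.633 and 0.596). The fitted log2 differences from control were 1.21 (treated) and 1.001 (abscopal) for Atf3 and 0.81 and 1.004 for Klf4. These are values only, without a test. With the fibroblast covariate the median of the list was 0.30, while Egr1 differed by 0.58, and by 0.57 without treated replicates 1 and 3.

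Heat shock chaperones had 28 tested members, 21 higher, 8 at an unadjusted p under 0.05, 1 lower at that level, 0 called, and a median log2 difference of 0.16. Hspa1b, an inducible chaperone of the Hsp70 family, had 141, 299.5 and 635 CPM in treated and 106, 159 and 276 CPM in abscopal tumors (log2 difference 0.72, SE 0.271, edgeR adjusted p = 0.221). Hspa1a, its near-identical neighbor with which reads can be exchanged, had a log2 difference of 1.78 (SE 0.675, adjusted p = 0.228), which was -0.30 with the fibroblast covariate. Hspa8, the constitutive member, had 338, 456 and 596 CPM against 297, 358 and 444 CPM, and Dnajb1, an Hsp40, differed by 0.23 (adjusted p = 0.794). Against control tumors the log2 difference of Hspa1b was 1.39 in treated and 0.66 in abscopal tumors. Chaperones of the endoplasmic reticulum and the unfolded protein response had 33 tested members, 27 higher and 4 at an unadjusted p under 0.05, and a median of 0.09. Hspa5, the main chaperone of that compartment, had a log2 difference of 0.14 (adjusted p = 0.644) and Ddit3, the CHOP factor, one of -0.10 (adjusted p = 0.813).

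Cell cycle genes leaned higher in treated tumors by small amounts, with no called member. Of 47 tested members 39 were higher in treated tumors, 15 at an unadjusted p under 0.05, 1 was lower at that level, 4 did not overlap between the groups (0.522% over all genes tested), and the median log2 difference was 0.21. Ccnb1, the cyclin of mitotic entry, had 56.7, 63.1 and 80.8 CPM in treated and 38.0, 46.3 and 52.2 CPM in abscopal tumors, without overlap (log2 difference 0.49, SE 0.107, edgeR adjusted p = 0.0530). Ccnb2 had 68.4, 75.7 and 89.0 CPM against 49.99, 55.0 and 62.3 CPM, also without overlap (log2 difference 0.41, adjusted p = 0.0768). Cdca3 and the mitotic kinase gene Aurka, at 0.44 and 0.38, were the other members without overlap. Mki67, the proliferation marker, differed by 0.08 (adjusted p = 0.826). By the list medians, treated against control was 0.01 and abscopal against control -0.19, and the fibroblast covariate left the median at 0.25. With that covariate the adjusted p was 0.0138 for Ccnb1, 0.0369 for Ccnb2, 0.0242 for Cdca3 and 0.0761 for Aurka (edgeR). In the same order it was 0.0105, 0.0232, 0.0320 and 0.0845 in DESeq2, and 0.0746, 0.0870, 0.127 and 0.137 in limma-voom.

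Glycolysis and hypoxia genes leaned lower in treated tumors, with no called member. Of 37 tested members 11 were higher in treated tumors, 12 were lower at an unadjusted p under 0.05, 0 higher at that level, and 0 were called, with a median log2 difference of -0.14. Aldoa, a glycolytic aldolase, had 968, 1111 and 1419 CPM in treated and 1293, 1525 and 1907 CPM in abscopal tumors, and 5 treated libraries lay below each abscopal library (log2 difference -0.39, SE 0.0947, edgeR adjusted p = 0.0863). Its adjusted p was 0.00772 in DESeq2 and 0.0784 in limma-voom. Car9, a carbonic anhydrase induced by hypoxia, had 59.3, 111 and 134 CPM against 104, 127 and 224 CPM (log2 difference -0.70, adjusted p = 0.146). Pfkl and Ndrg1 had log2 differences of -0.37 and -0.35. In the list's mean level the treated libraries, at 6.58 to 7.04, overlapped the abscopal libraries at 6.75 to 7.13.

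Melanocyte lineage genes had a median near 0, with more members lower than higher in treated tumors. Of 27 tested pigment genes 11 were higher, 6 were lower and 1 higher at an unadjusted p under 0.05, and the median log2 difference was -0.08. Over all genes tested 6.04% were lower and 7.45% higher at that level. Dct, a pigment enzyme and the most abundant of them, had 15361, 21769.5 and 23895 CPM in treated and 20049.8, 23954 and 28440.2 CPM in abscopal tumors (log2 difference -0.22, edgeR adjusted p = 0.345), and the lowest treated value was in replicate 3. Gpnmb, a melanosome protein, had a log2 difference of -0.42 (adjusted p = 0.119), S100b one of -0.38 (adjusted p = 0.0984) and Pmel, the amyloid of the melanosome, one of 0.07 (adjusted p = 0.812). Mitf, the master factor of the lineage, differed by -0.19 (edgeR adjusted p = 0.471). For Gpnmb and S100b the adjusted p was 0.0351 and 0.0195 in DESeq2, and 0.140 and 0.118 in limma-voom.

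Interferon genes overlapped between the groups. Of 35 tested type I interferon-induced genes 9 were higher, 2 were lower at an unadjusted p under 0.05 and 0 higher, with a median log2 difference of -0.21. Rsad2 differed by -0.62 (adjusted p = 0.389). In the list of interferon γ response and antigen presentation 21 of 34 were higher, 0 reached an unadjusted p under 0.05 in either direction, and the median was 0.03. B2m, the light chain of MHC class I, ranged from 414 to 1657 CPM in treated and from 656 to 1549 CPM in abscopal tumors. Treated replicate 4 was the lowest library of both lists.

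Cell death lists moved little. Necroptosis, pyroptosis and HMGB1 genes had 13 of 19 higher, 1 higher and 1 lower at an unadjusted p under 0.05, and a median log2 difference of 0.12. Hmgb1, the chromatin protein that dying cells release, had 139, 189.7 and 218 CPM in treated and 139, 155 and 183 CPM in abscopal tumors (log2 difference 0.20, edgeR adjusted p = 0.470). Mlkl, the executioner of necroptosis, differed by 0.08 (adjusted p = 0.925), and Ripk3, its kinase, had at most 12 counts in a library and was not tested. Ferroptosis and glutathione genes had 19 of 28 higher, 5 higher and 2 lower at an unadjusted p under 0.05, and a median of 0.10. Fth1, the ferritin heavy chain, had 944, 1374 and 2019 CPM against 816, 1064 and 1176 CPM (log2 difference 0.41, adjusted p = 0.164), while Gpx4, Slc7a11 and Acsl4 differed by 0.32, 0.26 and 0.03 (adjusted p = 0.724, 0.666 and 0.950).

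Housekeeping classes gave a background for these sizes. Cytosolic ribosomal protein genes had 65 of 76 higher and a median log2 difference of 0.14, with 8 higher at an unadjusted p under 0.05. Nuclear genes of the respiratory chain had 52 of 75 higher and a median of 0.07, mitochondrially encoded genes 1 of 7 higher and a median of -0.21, and zinc finger genes with the Zfp prefix 103 of 239 higher and a median of -0.04. No member of these lists was called. Abscopal replicate 6 had the lowest mean level of ribosomal protein genes, 7.50 against 8.19 to 8.70 in the other 13 libraries.

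**Figure D4:**
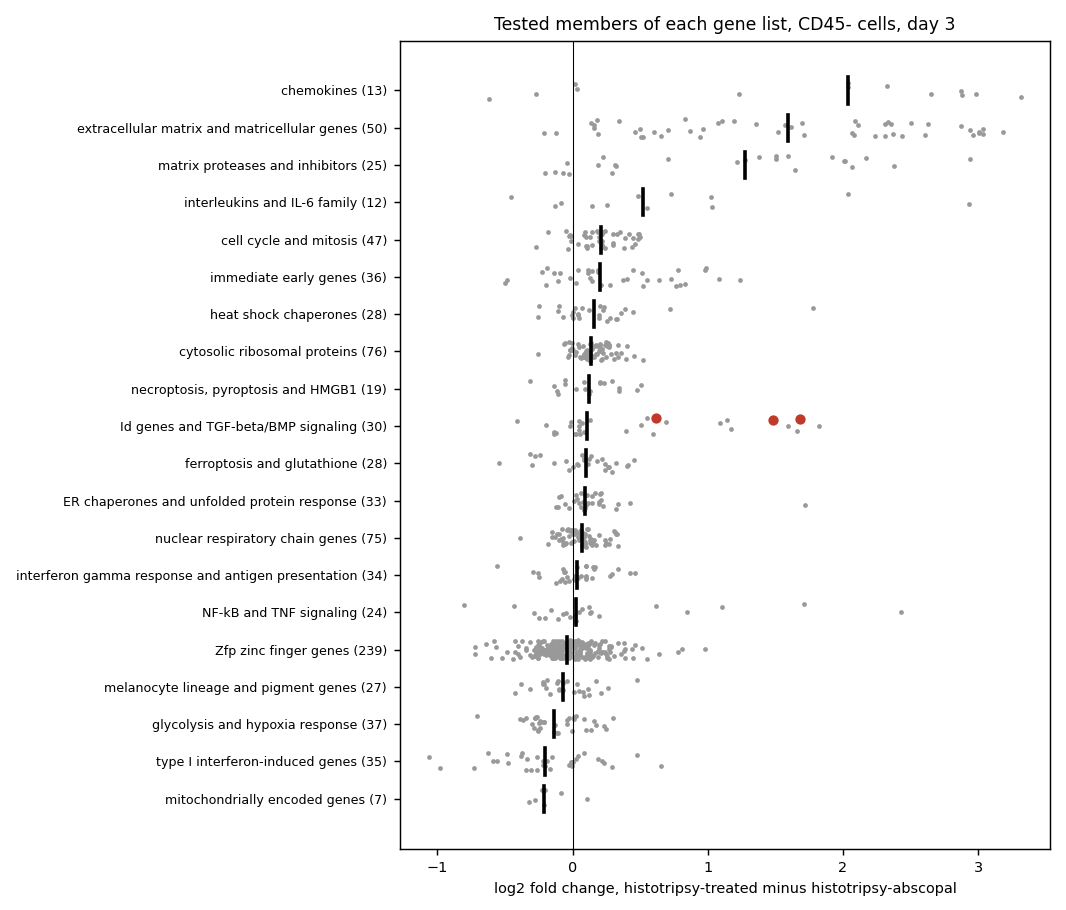
Log2 fold change (histotripsy-treated minus histotripsy-abscopal) of each tested member of 20 gene lists, with the number tested in brackets, the median as a black bar and called genes as large red points. The only called members are Id1, Id2 and Id3; the medians run from -0.21 in mitochondrially encoded genes to 2.04 in chemokines.

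Promoter windows of 250 bases before the start of each gene (RefSeq, GRCm38) were searched on both strands for 4 motifs, and the shares are descriptions only. GGCGCC, a motif of BMP-SMAD elements of Id genes, was in 1 of the 9 windows found for the 16 called genes, that of Id2. Windows were found for only 3 Id genes, and 2 of these held it, those of Id2 and Id4. It was in 30.8% of the windows of immediate early genes, in 24.1% of those of heat shock chaperones, and in 9.59% of all 32851 windows. A site farther than 250 bases before the start would be missed, so no hit does not mean that a gene lacks the motif. GAANNTTC, the core of the heat shock element, was in 31.0% of 29 windows of heat shock chaperones and in 6.69% of all windows. In 39 windows of immediate early genes TGACGTCA, the cyclic AMP response element, was in 7.69%, against 1.55% of all windows, and TGANTCA, the AP-1 site, in 5.13%, against 6.75%. A match to 1 of these motifs does not contain another, and a gene can have more than 1 window.

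Across all genes, the 14 libraries were compared as the study's methods describe, on Z-scores of log10 CPM of the 500 most variable genes, with a pseudocount of 1 chosen here. The first component held 67.7% of the variance, the second 9.64% and the third 3.83%. On the first component, whose sign is arbitrary, treated replicates 1 to 7 lay at 30.2, 6.63, 45.8, -23.3, -13.6, 15.9 and -2.84, and the abscopal libraries between -15.8 and -0.309. Treated replicates 3, 1, 6 and 2 lay above all other libraries, and replicate 4 below all others. The order was that of the fibroblast markers at both ends, and the 500 genes held 33 of the matrix list, 24 of the interferon γ and antigen presentation list, 15 of the protease list, 12 each of the type I interferon and fibroblast lists, and 11 of the chemokine list. The distance between the groups relative to that within them (pseudo-F 2.51) was matched or passed by 306 of the 3432 possible assignments of the 14 libraries (p = 0.0892, exact permutation, one-sided), so a separation of the groups beyond the spread between libraries was not shown. With 2000 genes in place of 500 the p was 0.0326 by the same exact test.

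**Figure D5:**
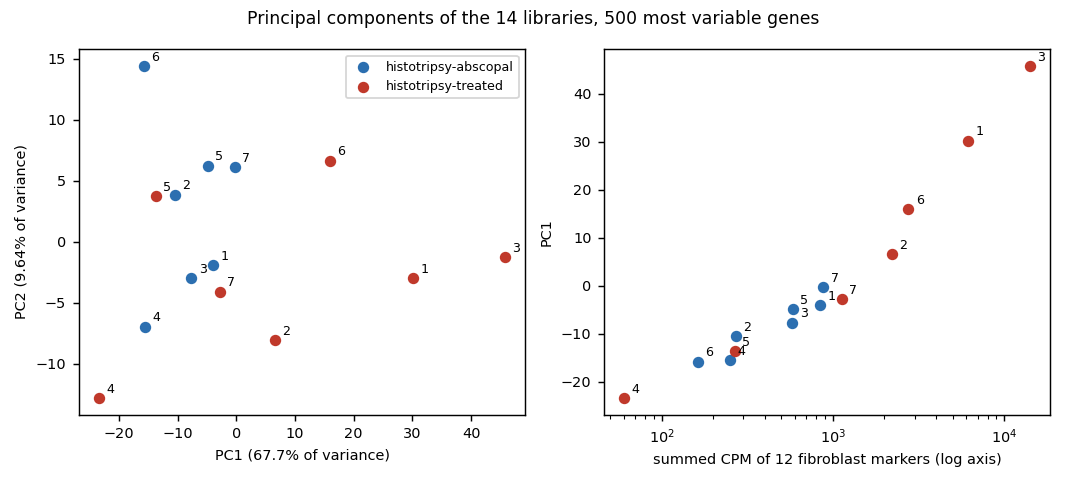
Left, first and second principal components of the 14 libraries (blue histotripsy-abscopal, red histotripsy-treated, numbers are replicate numbers); right, the first component against the summed CPM of 12 fibroblast markers on a log axis. Treated replicate 3 has both the highest marker sum, 14182 CPM, and the highest first component, 45.8, and treated replicate 4 the lowest of both, 60.7 CPM and -23.3.

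The difference between treated and abscopal tumors was set against the same difference on day 7, where there were 3 treated, 4 abscopal and 11 control libraries. In a fit of all 6 CD45- groups of both days, the difference of effects was called for 2 of 11548 genes (0.0173%). Gys1, the muscle form of glycogen synthase, had 93.9, 107 and 148 CPM in treated and 117, 161 and 190.0 CPM in abscopal tumors on day 3, and 137, 155 and 182 CPM against 103, 114 and 136 CPM on day 7. Its log2 difference was -0.52 on day 3 and 0.52 on day 7, a difference of 1.03 (SE 0.176, edgeR adjusted p = 0.0111). Zfp768, a zinc finger gene, had log2 differences of -0.41 on day 3 and 0.47 on day 7, a difference of 0.87 (SE 0.169, edgeR adjusted p = 0.0476). Both genes thus pointed in opposite directions on the 2 days, and neither was called on day 3 alone. Mean Gys1 in control, treated and abscopal tumors was 160, 114 and 159 CPM on day 3. On day 7 these means were 156, 158 and 117 CPM. For Zfp768 they were 54.5, 39.9 and 51.6 CPM on day 3 and 44.1, 51.6 and 39.3 CPM on day 7. The levels of both groups thus differed between the days, not those of treated tumors alone.

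The 16 genes called on day 3, chosen by their day 3 values, all had a smaller log2 difference in size on day 7. On day 7 the log2 difference was 0.38 for Id1, 0.18 for Id3, 0.52 for Id2, 0.06 for Rora, -0.27 for Mylk, 2.35 for H19 and -0.26 for Gm26177. The change of effect between the days was not called for any of them (adjusted p between 0.321 for Rora and 0.943 for Id2, edgeR), so a different effect on day 7 was not shown. In CD45+ cells of day 3, a separate table, the log2 difference of treated against abscopal was 0.87 for Id1, -0.38 for Id3, 0.07 for Id2 and -0.31 for Rora, and 2.44 for Cxcl1 and 2.16 for Cxcl2, given as values without a test.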

How the data were processed

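B16F10 tumors were digested and CD45- cells were sorted by flow cytometry, and their RNA was made into 3′ libraries (QuantSeq, primed on poly(A)) that carry unique molecular identifiers. Per the labels and methods, the authors trimmed reads with Trim Galore 0.5.0, aligned them with STAR 2.6.0 to GRCm38, collapsed identifiers and counted genes with featureCounts. The deposited values are raw counts per gene without normalization, and the strand setting is not given in the sources used here. How small RNAs without a poly(A) tail came to be primed was not tested.

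Groups came from the labels. The members and gene lists were chosen with earlier results of these data known. Genes named in the text were every called gene, a list of genes of interest, up to 4 tested members with the smallest p in each pathway list, and the most abundant gene; Gm24407, Cdca3, Aurka and the gene classes of small RNAs were added after values were seen. Of 55487 named lines, 120 share a symbol and were kept apart. edgeR 4.0.16 (R 4.3.3) fitted treated, abscopal and control libraries of day 3 together with TMM factors, a filter with a minimum count of 10 and total of 15, and the quasi-likelihood test with Benjamini-Hochberg adjustment at 0.05. The list level is the mean log2 CPM with a prior count of 2, computed here. The separation of libraries used one-sided exact permutation. The change between days was tested as an interaction over the libraries of day 3 and day 7. DESeq2 1.42.0, limma 3.58.1 (voom), library totals, no filter, 2 groups alone, a replicate block and leaving out each library were alternatives, and a fibroblast covariate and leaving out treated replicates 1 and 3 were added after seeing the data. Steps were tested on simulated data. Annotation came from GENCODE M21 (10765 tested genes matched by symbol) and copies from blastn 2.17.0. Libraries held 1080212 to 3820705 counts, so a gene with few counts per library has a wide counting error, and intervals were not used.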

Additional observations from a re-analysis of the deposited data

Results flagged for a closer look

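Gys1 and Zfp768 were singled out because the difference between treated and abscopal tumors changed between day 3 and day 7 by the interaction test. The change was 1.03 on the log2 scale for Gys1 (adjusted p = 0.0111, edgeR) and 0.87 for Zfp768 (adjusted p = 0.0476, edgeR). Both were lower in treated than in abscopal tumors on day 3 and higher than in abscopal tumors on day 7. On day 7 the group sizes were 3 and 4, and without day 7 treated replicate 1 or day 7 abscopal replicate 1 no gene was called.

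In 2 of the 96 groups of libraries examined, 1 library stood apart from the others of its group, while chance alone gives about 1 in 20. Egr1 had 114 CPM in abscopal replicate 6, the library that also had the lowest ribosomal protein level, against a median of 63.4 CPM. Mlkl had 7.68 CPM in treated replicate 4, which among the 14 treated and abscopal libraries had the lowest fibroblast and the highest erythroid marker sum, against a median of 21.6 CPM. The part of these markers in both values was not tested.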

How the results depend on the processing

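The count of called genes (16) moved with most settings. It was 138 in DESeq2 (78 higher, 60 lower, all 16 among them), 25 with library totals (20 higher, 5 lower, so 80% higher against 62.5%) and 451 without a filter (370 higher, 81 lower, 336 of them tested with the filter). It was 15 in limma-voom (11 of the 16 among them) and 11 with 2 groups alone (10 of the 16 among them). H19, Steap1, Amotl2, Gm24336 and Gm24130 were not called in limma-voom. With 2 groups alone H19, Steap1, Amotl2, Irx3 and Rnf141 were not called, and Gm24130 was not tested. Leaving out 1 library gave 0 to 99: over 1.5 times from 16 were abscopal 1 (0, edgeR, with 1247 at an unadjusted p under 0.05), 3 (2), 5 (8), 6 (10) and 7 (8), treated 1 (9), 2 (8), 3 (5), 4 (78), 5 (99) and 7 (30), and control 3 (9). The fibroblast covariate gave 121 (51 higher, 70 lower, all 16 among them) and leaving out treated replicates 1 and 3 gave 5. The replicate block gave 75 (37 higher, 38 lower, 14 shared). Same-numbered libraries correlated above 0.1 in 4 of 7 pairs (-0.06 to 0.34) and 4 treated libraries correlated best with their own number, a hint of pairing from the data. All 7 pairs were required, so the numbers were not taken as pairs. Under the replicate block Steap1 was no longer called (edgeR adjusted p = 0.0577), while Smad7 and Hspa1b (both 0.0289), Car9 (0.0299), Fos (0.0311), Ccnb1 (0.0395), Thbs2 and Gpnmb (both 0.0399) were. The change between days (2 genes) gave 4 in DESeq2, 1 with totals, 20 without a filter, 0 with 2 groups alone (807 at an unadjusted p under 0.05, edgeR), 0 with the replicate block (1075) and 0 to 3 with 1 library left out. The separation p (exact permutation, 0.0892) was 0.0326 with 2000 genes, 0.109 under the replicate block, and 0.0157 to 0.160 with 1 library left out, under 0.05 without treated 4 (0.0157) and 5 (0.0396). All 16 called genes kept their direction when 1 library was left out, but only Rora and Gm26177 stayed called in 17 of 18 fits. None of the 16 called genes changed direction in the alternatives that gave it a value, and Gm24130 had none with 2 groups alone or under the replicate block. Among uncalled values, the fibroblast covariate turned Hspa1a (-0.30), Ccl2 (-0.33) and Mlkl (-0.25), and the medians of chemokines (-0.43), interferon γ response (-0.29), NF-κB (-0.06) and necroptosis genes (-0.04). Leaving out treated replicates 1 and 3 turned Mlkl (-0.19) and the medians of interleukins (-0.10), interferon γ response (-0.17), NF-κB (-0.03) and necroptosis genes (-0.02). The causes were not tested.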

Other observations

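Histone cluster genes, found after the small RNA classes were seen and also made largely without poly(A) tails, had 24 tested members, 19 of them higher in treated tumors, 3 at an unadjusted p under 0.05 and 0 called by edgeR, with a median log2 fold change of 0.09. Among other small nuclear RNA genes, Gm24018 had 34.7 ± 19.2 CPM (SD, n = 7) in treated and 14.5 ± 2.24 CPM (SD, n = 7) in abscopal tumors, which is 1.21 higher on the log2 scale (edgeR adjusted p = 0.0518). Rnu12, the U12 RNA of the minor spliceosome, differed by 1.14 (adjusted p = 0.0984, edgeR).

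Endothelial markers had 5 tested members, 4 of them higher in treated tumors and 0 at an unadjusted p under 0.05, with sums of 52.3 to 128 CPM in treated and 39.3 to 69.7 CPM in abscopal libraries. Pericyte and smooth muscle markers summed to 4.76 to 89.5 CPM against 6.12 to 17.1 CPM. Erythroid markers had 4 tested members, each higher at an unadjusted p under 0.05 and none called, with a median log2 fold change of 1.61. The medians of their sums were close, 41.8 CPM in treated and 34.6 CPM in abscopal libraries, and treated replicates 4 and 5 were highest.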
